A study of Homo sapiens with 9 samples.

Results

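Transcripts of 9 target genes of p53 were followed in OVISE, a cell line from a clear cell carcinoma of the ovary in which ARID1A is mutated. They are MDM2, PHLDA3, GDF15, TP53INP1, TP53I3, FAS, BTG2, RRM2B and ZMAT3, and every array probe annotated with these symbols was taken. Of the 9 genes, 8 had an annotated probe, 14 probes in all, and 13 of these were above background among 23014 such probes of 47323 on the array. BTG2, an antiproliferative gene, and the gene of p53 itself were not analysed here. The cells were grown in Matrigel, a basement membrane extract, in 3 dimensions. The GSK126 group received 5 µM of this inhibitor of EZH2, the methyltransferase of Polycomb repressive complex PRC2. The ARID1A group received 1 µg/mL doxycycline, which switched on wild-type ARID1A, part of the chromatin remodeller SWI/SNF. The DMSO group received the vehicle alone. Doxycycline was given to the ARID1A group only, so its own effect and that of ARID1A cannot be told apart. With 3 arrays in each group, the replicate number of an array is also the number of its labelled batch. The labels give no word on separate cultures for the replicates or on the clonality of the inducible line, so the spread behind each p-value may be technical.

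p53 is a transcription factor that is held at a low level by MDM2, the ubiquitin ligase that marks it for degradation, and that accumulates when DNA is damaged or the cell is stressed. It then switches on genes for cell cycle arrest, DNA repair and cell death, and MDM2 itself, which closes a negative feedback loop. Levels of these target transcripts are therefore commonly read as a measure of p53 activity. Clear cell ovarian carcinomas usually keep the p53 gene intact, unlike the high-grade serous type.

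p53 binds a site made of adjacent half-sites, and the promoters of 3 of the genes are shown to let a reader see such letters where they occur. The table of RefSeq promoters (build GRCh38.p14, 250 bases before to 50 after a transcript start) listed 12 windows for 6 of the 9 genes, namely MDM2, GDF15, TP53I3, FAS, BTG2 and ZMAT3. Each window was searched on both strands for the p53 half-site of 10 letters and for 2 adjacent half-sites, 20 letters with at most 2 mismatches to the consensus. The shorter motif lies inside the longer one, and the longer search was added after the result of the shorter was seen. The longer motif was found in 3 of the 12 windows, those of MDM2 and FAS, against 0.649% of all 35116 windows in the table. The half-site without mismatch was found in 1 of the 12 windows, that of FAS, against 6.63% of all windows. The MDM2 window, chr12:68808767-68809066 on the plus strand, belongs to the internal promoter of the gene, known for its response to p53, and holds the longer motif 94 bases before the start. An overlapping MDM2 window holds the same letters. The FAS window, chr10:88991181-88991480 on the plus strand, holds it 122 bases before the start. TP53I3, at chr2:24084785-24085084 on the minus strand, had the smallest p of the genes with a window and no match, which says only that these letters are not in this window. Capitals mark the 20 letters matched.
MDM2: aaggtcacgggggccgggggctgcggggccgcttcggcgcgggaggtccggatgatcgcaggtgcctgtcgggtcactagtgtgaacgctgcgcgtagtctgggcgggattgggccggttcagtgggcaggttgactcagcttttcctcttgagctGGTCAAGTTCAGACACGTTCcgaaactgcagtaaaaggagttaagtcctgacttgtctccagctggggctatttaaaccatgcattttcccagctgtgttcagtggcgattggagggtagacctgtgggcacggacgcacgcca
FAS: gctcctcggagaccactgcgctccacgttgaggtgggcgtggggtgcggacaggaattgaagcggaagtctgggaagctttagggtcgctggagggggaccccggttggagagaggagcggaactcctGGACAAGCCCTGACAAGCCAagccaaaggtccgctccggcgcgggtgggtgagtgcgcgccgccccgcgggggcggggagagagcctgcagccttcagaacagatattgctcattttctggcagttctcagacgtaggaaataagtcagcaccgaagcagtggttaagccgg
TP53I3: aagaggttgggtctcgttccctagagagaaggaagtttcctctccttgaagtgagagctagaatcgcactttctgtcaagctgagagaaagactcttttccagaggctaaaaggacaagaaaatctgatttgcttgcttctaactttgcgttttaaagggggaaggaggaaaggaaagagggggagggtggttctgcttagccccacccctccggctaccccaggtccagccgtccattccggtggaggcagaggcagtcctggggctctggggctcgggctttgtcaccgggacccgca

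None of the 8 measured genes passed the test after ARID1A induction or under GSK126 in a model of the 3 groups without the batch. With batch as a block 1 did, PHLDA3 for ARID1A against DMSO (limma adjusted p = 0.0436), where 6.1% of all genes passed. The counts and intervals that follow are from the model without the batch. With limma and Benjamini-Hochberg adjustment over 12698 genes, 0 of 8 passed an adjusted p of 0.05 for ARID1A against DMSO, where 2.84% of all genes passed. For GSK126 against DMSO 0 of 8 passed, and 0% of all genes. For GSK126 against ARID1A 0 of 8 passed, against 2.5% of all genes. At an unadjusted p below 0.05 the limma counts were 2 of 8 (PHLDA3 and TP53INP1, against 19.2% of all genes), 2 of 8 (TP53I3 and ZMAT3, against 9.33%) and 0 of 8 (against 16.5%), in the same order. The median difference of the 8 genes was −0.0067, −0.0036 and −0.045 on the log2 scale, beside −0.0027, −0.0029 and −0.0073 over all genes tested. The 95% intervals of all 24 differences stayed within 1 on the log2 scale. The widest reached −0.65 (GDF15, ARID1A against DMSO), which corresponds to a 1.57-fold change in size. An array of a whole culture cannot tell fewer cells with a transcript from less of it per cell. Both comparisons against DMSO use the same DMSO arrays.

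**Figure D1:**
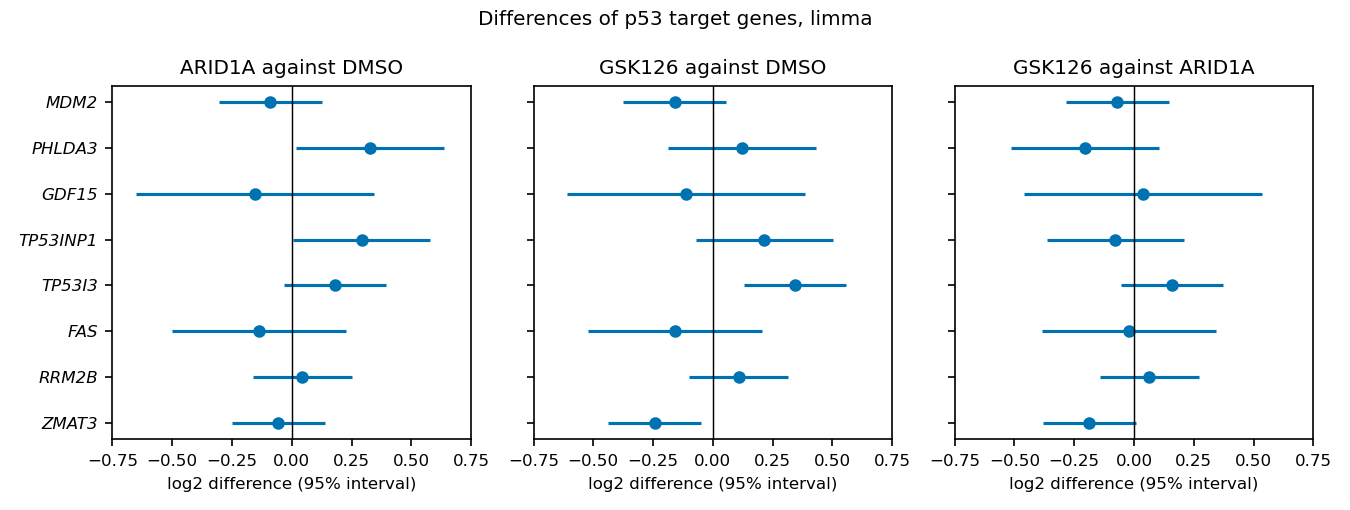
Differences of the 8 measured p53 target genes in the 3 comparisons, as log2 fold changes (points) with 95% intervals (bars) from limma, on the x axis. Every interval lies between −0.75 and 0.75, and the intervals of PHLDA3 and TP53INP1 (ARID1A against DMSO) and of TP53I3 and ZMAT3 (GSK126 against DMSO) leave out 0 before adjustment for the number of genes.

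MDM2, the feedback inhibitor, was measured on probe ILMN_1736829, which had a detection p of 0 on every array. Its normalised log2 intensity was 11.63, 11.82 and 11.94 in GSK126 cells, 11.82, 11.92 and 11.86 with induced ARID1A, and 11.91, 11.95 and 12.02 in DMSO cells (replicates 1 to 3). The DMSO arrays lay highest in each batch, yet the groups overlapped. The difference was −0.09 (SE 0.10, limma adjusted p = 0.651) for ARID1A against DMSO and −0.16 (SE 0.10, 0.638) for GSK126 against DMSO. Between GSK126 and ARID1A it was −0.07 (limma adjusted p = 0.783). The other MDM2 probe, ILMN_1814208, was not above background on any of the 9 arrays and gives no comparison. Over the 9 arrays the level of MDM2 was compared with those of the 12690 tested genes that are not members. Those that followed it most closely were MYH3 (Pearson r = 0.96, Spearman rho = 0.92), GJC1 (0.96, 0.93) and CDC6 (0.94, 0.90). GSK126 replicate 1 was the lowest of the 9 arrays for MDM2 and for each of these genes. MYH3 read 6.30 on it and 7.28 to 8.06 on the other arrays. These arrays share batches and treatments, and the correlations are given as a description.

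PHLDA3, a repressor of the kinase AKT, was the member with the largest difference after ARID1A induction. It read 10.84, 11.14 and 11.16 in GSK126 cells, 11.08, 11.38 and 11.29 with induced ARID1A, and 10.70, 11.09 and 10.99 in DMSO cells. In each batch the induced array was the highest of the 3, batch 1 was the lowest in each group, and the groups overlapped. The mean was 11.25 ± 0.16 with induced ARID1A and 10.93 ± 0.20 in DMSO cells (SD, n = 3 each), a difference of 0.33 (SE 0.14), with 0.38, 0.30 and 0.30 in batches 1, 2 and 3. It did not pass over all genes (limma adjusted p = 0.237). With batch as a block in limma it did (adjusted p = 0.0436), in a model where 6.1% of all genes passed, and the count for ARID1A against DMSO then became 1 of 8. Leaving out any 1 of the 9 arrays from that model ended the call, while the difference stayed between 0.30 and 0.35. Over all 12698 genes 104 to 643 passed in those fits, against 774 with all arrays. The limma adjusted p of PHLDA3 was 0.0671, 0.0696 and 0.0611 without GSK126 replicate 1, 2 or 3. It was 0.131, 0.112 and 0.0964 without ARID1A replicate 1, 2 or 3. Without DMSO replicate 1, 2 or 3 it was 0.160, 0.115 and 0.173. GSK126 against DMSO gave 0.12 (limma adjusted p = 0.814), and GSK126 against ARID1A gave −0.20 (limma adjusted p = 0.513).

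**Figure D2:**
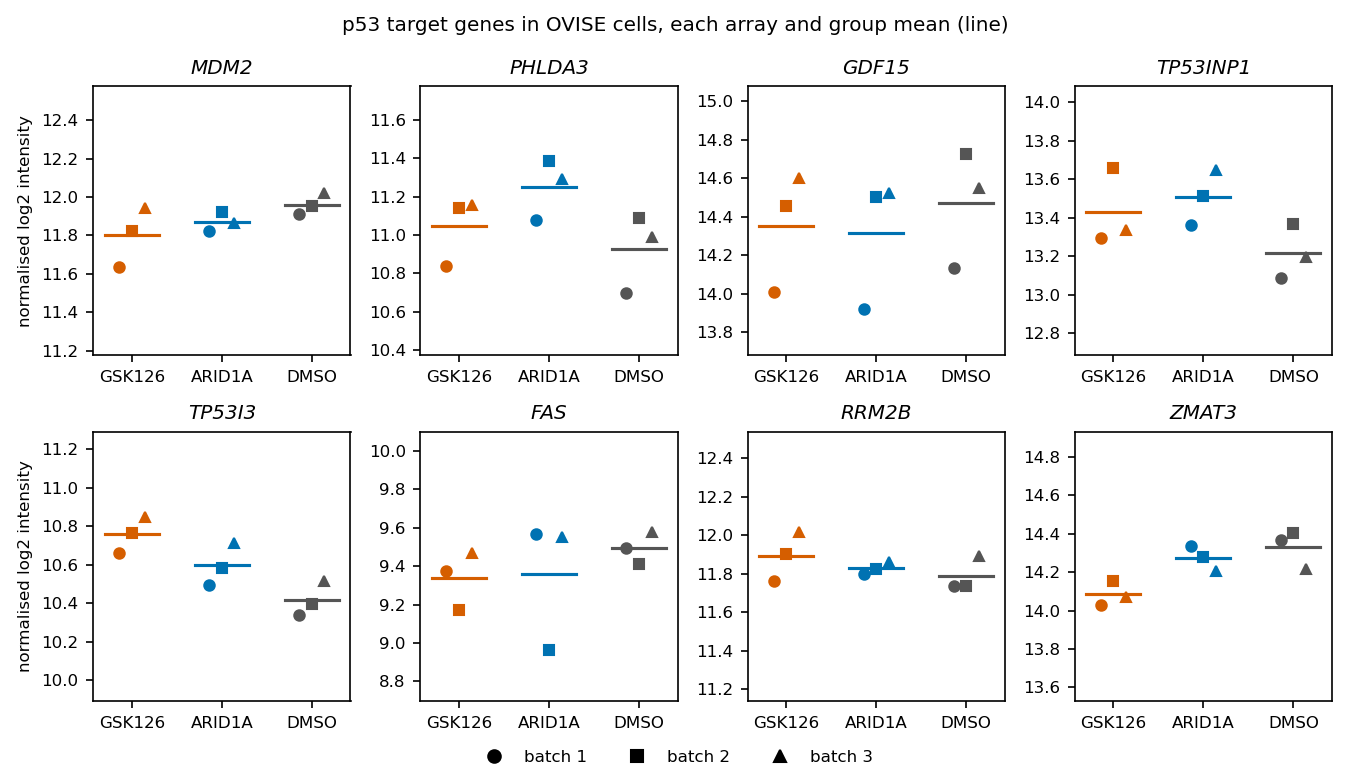
Normalised log2 intensity (y axis) of the 8 measured p53 target genes on each of the 9 arrays, by group (x axis), with the group mean as a line and the labelled batch as the symbol. The y axis of each panel spans the same number of log2 units and does not start at 0. All genes except FAS and ZMAT3 were lowest in batch 1 in every group, and TP53I3 was higher on all 3 GSK126 arrays than on any DMSO array.

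TP53INP1 encodes a stress protein of the nucleus that takes part in p53-dependent apoptosis and autophagy. Probe ILMN_1714108 read 13.30, 13.66 and 13.34 in GSK126 cells, 13.36, 13.51 and 13.65 with induced ARID1A, and 13.09, 13.37 and 13.20 in DMSO cells. Both treated groups were above DMSO within every batch, and both overlapped with DMSO across batches. The difference was 0.29 (SE 0.13, limma adjusted p = 0.252) for ARID1A against DMSO and 0.21 (SE 0.13, 0.638) for GSK126 against DMSO. Its other probe, ILMN_2214197, gave 0.21 (limma adjusted p = 0.363 over all probes) and 0.14 (0.719).

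TP53I3, an NADPH-dependent quinone oxidoreductase tied to oxidative stress, was the member with the largest difference under GSK126. Probe ILMN_2358919 read 10.66, 10.76 and 10.85 in GSK126 cells, 10.49, 10.59 and 10.72 with induced ARID1A, and 10.34, 10.40 and 10.51 in DMSO cells. The 3 GSK126 arrays lay above the 3 DMSO arrays, and the induced arrays fell between them and overlapped with both. The mean was 10.76 ± 0.09 in GSK126 cells and 10.42 ± 0.09 in DMSO cells (SD, n = 3 each). This difference of 0.34 (SE 0.09), with 0.33, 0.37 and 0.33 in the 3 batches, did not pass over all genes (limma adjusted p = 0.378, and 0.155 with the block). For ARID1A against DMSO it was 0.18 (SE 0.09, limma adjusted p = 0.334). A dimmer probe, ILMN_1651967, with detection p-values between 0.00519 and 0.01948, showed −0.03 for GSK126 against DMSO (limma adjusted p = 0.979 over all probes), and −0.14 for ARID1A against DMSO (0.726). The probes of TP53I3 were annotated to different transcripts of the gene, NM_147184 and NM_004881. On the brightest probe of each gene, groups without overlap were found for 2 of 8 members for GSK126 against DMSO (TP53I3 above and ZMAT3 below). Of all genes 15.2% had them. The count was 0 of 8 for ARID1A against DMSO (25.2% of all genes) and 1 of 8, ZMAT3, for GSK126 against ARID1A (21% of all genes).

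FAS, the death receptor of the TNF receptor family, read 9.37, 9.17 and 9.47 in GSK126 cells, 9.56, 8.96 and 9.55 with induced ARID1A, and 9.50, 9.41 and 9.58 in DMSO cells. The induced array of batch 2 was the lowest of the 9, and the groups overlapped. The difference was −0.14 (SE 0.16, limma adjusted p = 0.692) for ARID1A against DMSO and −0.16 (SE 0.16, 0.800) for GSK126 against DMSO. Without that array, ARID1A replicate 2, the difference for ARID1A against DMSO was 0.06 (limma adjusted p = 0.813).

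GDF15, a secreted protein of the TGF-beta superfamily that is induced by many kinds of stress, varied more with the batch than with the treatment. It read 14.01, 14.45 and 14.60 in GSK126 cells, 13.92, 14.50 and 14.52 with induced ARID1A, and 14.13, 14.72 and 14.55 in DMSO cells. Batch 1 was the lowest in all 3 groups, and the groups overlapped throughout. The batch means of 14.02, 14.56 and 14.56 differed more than the group means did (limma F test for batch, adjusted p = 0.0819 over all genes). GDF15 did not pass this test at an adjusted p of 0.05, which 0.323% of all genes did. Between groups the difference was −0.15 (SE 0.22, limma adjusted p = 0.754) for ARID1A against DMSO and −0.11 (SE 0.22, 0.904) for GSK126 against DMSO. With batch as a block the SE was 0.08 in both, and neither passed (limma adjusted p = 0.310 and 0.586). The difference for ARID1A against DMSO turned to 0.04 without ARID1A replicate 1, and that for GSK126 against DMSO to 0.06 without GSK126 replicate 1 and to 0.01 without DMSO replicate 2. For 4 of the 8 members the range of the batch means exceeded that of the group means, as it did for 43.4% of all genes tested. Batch 1 was the lowest in all 3 groups for 6 of the 8 members (MDM2, PHLDA3, GDF15, TP53INP1, TP53I3 and RRM2B), and for 7.63% of all genes tested. That count was made after the values were seen, and its cause was not tested.

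RRM2B, the p53-inducible small subunit of ribonucleotide reductase that supplies nucleotides for DNA repair, did not pass in any comparison. Probe ILMN_1698231 read 11.76, 11.90 and 12.02 in GSK126 cells, 11.80, 11.83 and 11.86 with induced ARID1A, and 11.73, 11.74 and 11.89 in DMSO cells. The groups overlapped, with differences of 0.04 (SE 0.09, limma adjusted p = 0.843) for ARID1A against DMSO and 0.11 (SE 0.09, 0.757) for GSK126 against DMSO. Its other probe, ILMN_2170595, gave −0.14 and −0.04, so the probes differed in sign (limma adjusted p = 0.672 and 0.959 over all probes).

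ZMAT3, a zinc finger protein that binds RNA, had 3 probes above background, and they did not move alike. The brightest, ILMN_2361104, read 14.03, 14.16 and 14.07 in GSK126 cells, 14.33, 14.28 and 14.21 with induced ARID1A, and 14.37, 14.40 and 14.22 in DMSO cells. On this probe the 3 GSK126 arrays lay below all others. The difference was −0.24 (SE 0.09, limma adjusted p = 0.462) for GSK126 against DMSO, −0.06 (SE 0.09, 0.769) for ARID1A against DMSO and −0.19 (SE 0.09, 0.320) for GSK126 against ARID1A. Probe ILMN_1654262 read 13.34, 13.37 and 13.55 in GSK126 cells, 13.61, 13.77 and 13.64 with induced ARID1A, and 13.32, 13.34 and 13.41 in DMSO cells. Here the 3 induced arrays were above all others. ARID1A against DMSO gave 0.32 (SE 0.09, limma adjusted p = 0.136 over all probes), and GSK126 against DMSO gave 0.06 (0.873). The remaining probe, ILMN_1865764, gave 0.25 (limma adjusted p = 0.253 over all probes) for ARID1A against DMSO and 0.22 (0.529) for GSK126 against DMSO. On it the GSK126 arrays and the induced arrays all lay above the DMSO arrays. The mean over the 3 probes was 0.17 higher with induced ARID1A than in DMSO (limma adjusted p = 0.239), so the sign for this gene depends on the probe. Over all probes, 0 of the 13 member probes passed for ARID1A against DMSO, where 1.44% of all probes did, and 3 of the 13 had an unadjusted p below 0.05 in limma (16.5% of all probes).

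**Figure D3:**
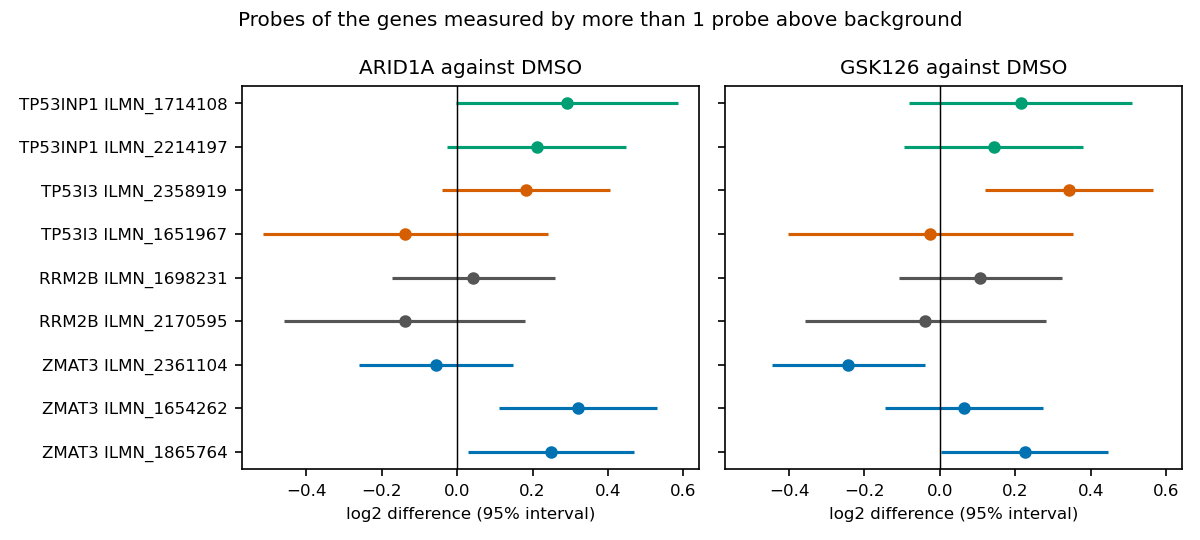
Log2 differences (points, x axis) with 95% intervals (bars) for each probe above background of the 4 genes with more than 1 such probe, for ARID1A against DMSO and GSK126 against DMSO. The ZMAT3 probes fall on both sides of 0 in both comparisons, as do those of TP53I3 and RRM2B, and the TP53INP1 probes lie on the same side.

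The wider pathway was read from 7 lists of 92 further genes, of which 85 had a probe and 75 were tested. These lists were chosen with earlier results of these data known, and control of each listed gene by p53 in these cells was not tested. For ARID1A against DMSO, 3 of 75 rose, where 2.01% of all genes did, and 1 of 75 fell, where 0.835% did (limma adjusted p below 0.05). With batch as a block 5 rose (3.82% of all genes) and 1 fell (2.28%). For GSK126 against ARID1A 1 of 75 rose, where 0.953% of all genes did, and 3 fell, where 1.54% did, and with the block 2 rose (1.81%) and 3 fell (2.36%). For GSK126 against DMSO 0 of 75 passed in limma, with or without the block, and 5 had an unadjusted p below 0.05, as had 9.33% of all genes. The median difference of the 75 was −0.031 for ARID1A against DMSO and −0.028 for GSK126 against DMSO, beside −0.0027 and −0.0029 for all genes tested.

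Of 12 tested genes for metabolism, redox control and autophagy, 1 rose after ARID1A induction, where 2.01% of all genes did. The gene was TP53INP2, which takes part in autophagosome formation. It read 10.15, 10.07 and 10.49 in GSK126 cells, 11.01, 10.89 and 11.39 with induced ARID1A, and 9.62, 9.74 and 10.12 in DMSO cells. The induced arrays lay above all others. The rise over DMSO was 1.27 (SE 0.18, limma adjusted p = 0.00860), and the call held with each of the 9 arrays left out in turn (0.0120 to 0.0420). GSK126 against DMSO gave 0.41 (SE 0.18, limma adjusted p = 0.530). GSK126 against ARID1A gave −0.86 (SE 0.18, limma adjusted p = 0.0412). That last call held only without DMSO replicate 3 (0.0374) and ended without GSK126 replicate 1, 2 or 3 (0.126, 0.111 and 0.0534), without ARID1A replicate 1, 2 or 3 (0.0884, 0.0601 and 0.128) and without DMSO replicate 1 or 2 (0.0508 and 0.0626). It also ended with no filter on dim probes (0.0540), with only the 2 groups in the fit (0.0625) and with array weights (0.0501). With the batch as a block the same comparison had a limma adjusted p of 0.00386, and it passed with each of the 9 arrays left out (0.00889 to 0.0288).

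Of 5 tested genes for secreted and surface proteins, 2 rose after ARID1A induction, where 2.01% of all genes did. CD82, a tetraspanin of the plasma membrane known as a suppressor of metastasis, read 11.09, 10.61 and 10.93 in GSK126 cells, 11.83, 11.90 and 12.37 with induced ARID1A, and 11.06, 11.01 and 11.14 in DMSO cells. The induced arrays stood apart from the rest. The rise over DMSO was 0.96 (SE 0.16, limma adjusted p = 0.0200). It no longer passed without ARID1A replicate 3 (0.0548) or without DMSO replicate 1, 2 or 3 (0.0818, 0.0595 and 0.0579). With the block it passed in 6 of 9 such fits and ended without DMSO replicate 1, 2 or 3 (limma adjusted p = 0.0730, 0.0517 and 0.0815). GSK126 against ARID1A gave −1.16 (SE 0.16, limma adjusted p = 0.00915), which passed with each array left out. The other CD82 probe, ILMN_1662973, gave 0.51 for ARID1A against DMSO (limma adjusted p = 0.164 over all probes) and −0.49 for GSK126 against ARID1A (0.189), and passed in neither.

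THBS1, the secreted matrix protein thrombospondin-1, read 8.15, 8.27 and 8.11 in GSK126 cells, 9.50, 9.46 and 8.96 with induced ARID1A, and 8.51, 8.60 and 7.94 in DMSO cells. Again the induced arrays were the highest. The rise over DMSO was 0.96 (SE 0.19, limma adjusted p = 0.0363). It ended without GSK126 replicate 2 or 3 (0.0539 and 0.0532), without ARID1A replicate 1 or 2 (0.0984 and 0.0949), without DMSO replicate 1 or 3 (0.0927 and 0.0779) and with only the 2 groups in the fit (0.0729). GSK126 against ARID1A gave −1.14 (SE 0.19, limma adjusted p = 0.0212), which ended without GSK126 replicate 1, 2 or 3 (0.0717, 0.0516 and 0.0688) and without ARID1A replicate 1 or 2 (0.0711 and 0.0638). With the block THBS1 passed in 7 of 9 left-out fits for ARID1A against DMSO, all except those without DMSO replicate 1 or 3 (limma adjusted p = 0.0520 and 0.0563). For GSK126 against ARID1A it then passed in 9 of 9 (0.0109 to 0.0330). THBS1 is also made by endothelial cells, while all 9 samples here were of the OVISE carcinoma line. Of 5 endothelial markers, 4 (PECAM1, CDH5, KDR and TEK) were not above background on any array. VWF, above it on 3 arrays, averaged 5.69 in GSK126 cells, 7.28 with induced ARID1A and 5.76 in DMSO cells. A link of these markers to the THBS1 result was not tested.

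Of 17 tested apoptosis targets, 1 fell after ARID1A induction, where 0.835% of all genes did, and 0 rose, where 2.01% did. PMAIP1, also called NOXA, a BH3-only protein that promotes apoptosis, read 11.82, 11.62 and 11.80 in GSK126 cells, 11.28, 11.10 and 11.21 with induced ARID1A, and 11.96, 11.80 and 11.69 in DMSO cells. The induced arrays were below all others. The difference from DMSO was −0.62 (SE 0.10, limma adjusted p = 0.0185), and it ended without ARID1A replicate 2 or 3 (0.0528 and 0.0646) or DMSO replicate 1 (0.0780). PMAIP1 was 0.55 higher under GSK126 than with induced ARID1A (limma adjusted p = 0.0290). This call ended without GSK126 replicate 1 or 3 (0.0926 and 0.0881), without ARID1A replicate 1, 2 or 3 (0.0626, 0.0769 and 0.0917) and with only the 2 groups in the fit (0.0579). With the block PMAIP1 passed in 6 of 9 left-out fits for ARID1A against DMSO (limma adjusted p = 0.0197 to 0.0677) and in 3 of 9 for GSK126 against ARID1A (0.0257 to 0.0804). Its other probe, ILMN_1689525, differed from DMSO by −0.57 (limma adjusted p = 0.0645 over all probes). The other apoptosis targets lay between −0.33 and 0.33 for ARID1A against DMSO. Among them the BCL2 family members BAX and BBC3, named here after their values were seen, each differed by 0.08 (limma adjusted p = 0.776 and 0.711).

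**Figure D4:**
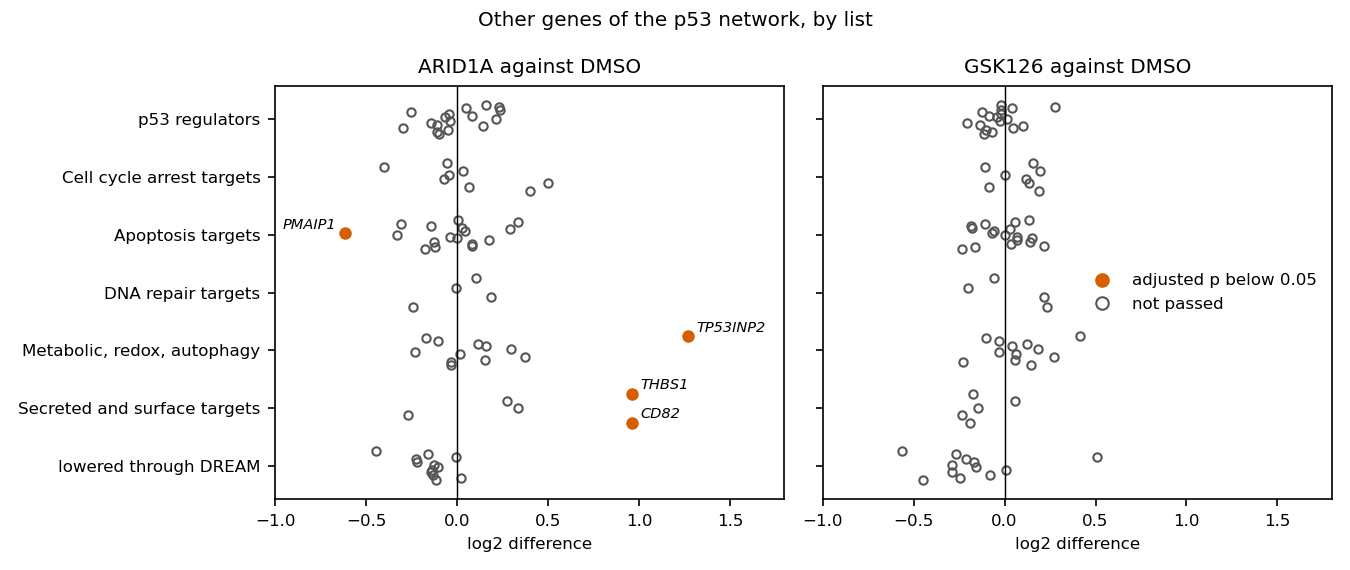
Log2 differences (x axis) of the 75 other tested genes of the p53 lists, 1 point per gene, by list, for ARID1A against DMSO and GSK126 against DMSO. Filled points passed limma over all genes. TP53INP2, THBS1 and CD82 lie near or above 1 and PMAIP1 at −0.62 for ARID1A, and no gene passed for GSK126.

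Of 8 tested cell cycle arrest targets, 0 passed for ARID1A against DMSO, where 2.84% of all genes did. In limma 2 had an unadjusted p below 0.05, as had 19.2% of all genes. CDKN1A, the cyclin-dependent kinase inhibitor p21, read 14.92, 15.51 and 15.26 in GSK126 cells, 15.41, 15.68 and 15.70 with induced ARID1A, and 14.84, 15.26 and 15.18 in DMSO cells. The induced arrays lay above the DMSO arrays and overlapped with the GSK126 arrays. Within batches 1, 2 and 3 the induced array exceeded its DMSO array by 0.57, 0.41 and 0.52. The difference was 0.50 (SE 0.17, limma adjusted p = 0.150), and it passed with the block (0.0221). With the block it passed without any 1 GSK126 array (0.0303 to 0.0366) and without ARID1A replicate 2 (0.0359). It did not pass without ARID1A replicate 1 or 3 (0.0883 and 0.0803) or DMSO replicate 1, 2 or 3 (0.0966, 0.0914 and 0.102). GSK126 against DMSO gave 0.13 for CDKN1A (SE 0.17, limma adjusted p = 0.836).

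BTG1, an antiproliferative relative of BTG2, read 13.07, 13.24 and 13.14 in GSK126 cells, 13.30, 13.47 and 13.30 with induced ARID1A, and 12.86, 13.04 and 12.98 in DMSO cells. The 3 groups did not overlap, with the induced arrays highest and the DMSO arrays lowest. The difference of 0.40 from DMSO (SE 0.09) had a limma adjusted p of 0.0543, and 0.0236 with the block. Without the block BTG1 passed with the authors' value table (0.0186), no background correction (0.0199), normexp with an offset of 50 (0.0356), a detection p below 0.01 on all 9 arrays (0.0357) and array weights (0.0466). It passed in 0 of the 9 left-out fits without the block (0.0609 to 0.187). With the block it passed without any 1 GSK126 array (0.0396 to 0.0454). It did not pass without ARID1A replicate 1, 2 or 3 (0.0915, 0.0765 and 0.0612) or DMSO replicate 1, 2 or 3 (0.110, 0.0976 and 0.0935). For GSK126 against DMSO the BTG1 difference was 0.19 (limma adjusted p = 0.577).

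Of 4 tested repair targets 0 passed in limma in any comparison. Of all genes 2.84% passed for ARID1A against DMSO, 0% for GSK126 against DMSO and 2.5% for GSK126 against ARID1A. In the last of these comparisons 1 repair target, DDB2, had an unadjusted p below 0.05 in limma, as had 16.5% of all genes. DDB2, a subunit of the complex that recognises ultraviolet damage, read 10.63, 10.88 and 10.78 in GSK126 cells, 10.25, 10.42 and 10.19 with induced ARID1A, and 10.52, 10.72 and 10.35 in DMSO cells. The GSK126 arrays lay above the induced arrays, and the DMSO arrays overlapped with both. The difference between GSK126 and ARID1A was 0.47 (SE 0.12, limma adjusted p = 0.0753), and 0.0294 with the block. Without the block DDB2 passed with the authors' value table (0.0330) and with no background correction (0.0338), and in 0 of the 9 left-out fits (0.0697 to 0.224). With the block the call held without DMSO replicate 3 (0.0435). It ended without GSK126 replicate 1, 2 or 3 (0.0757, 0.0841 and 0.105), without ARID1A replicate 1, 2 or 3 (0.0892, 0.0885 and 0.0985) and without DMSO replicate 1 or 2 (0.0581 and 0.0584). POLH, the translesion DNA polymerase eta, differed by 0.19 for ARID1A against DMSO (limma adjusted p = 0.432) and by 0.22 for GSK126 against DMSO (0.616). Its other probe, ILMN_2136576, gave −0.43 and −0.65 (limma adjusted p = 0.315 and 0.389 over all probes), so the probes differed in sign. This dimmer probe was above background on 3 DMSO arrays, 1 induced array and no GSK126 array.

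Of 17 tested regulators of p53, 0 passed in limma in any comparison. Of all genes 2.84% passed for ARID1A against DMSO, 0% for GSK126 against DMSO and 2.5% for GSK126 against ARID1A. For ARID1A against DMSO 2 regulators had an unadjusted p below 0.05 in limma, as had 19.2% of all genes. PRKDC, the catalytic subunit of DNA-dependent protein kinase, differed by −0.25 (limma adjusted p = 0.171), and TP53BP1, a p53-binding protein of the DNA damage response, by 0.23 (0.246). MDM4, the partner of MDM2 that inhibits p53, differed by −0.06 for ARID1A against DMSO (limma adjusted p = 0.820) and by −0.04 for GSK126 against DMSO (0.946).

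The last list held cell cycle genes that are lowered downstream of p53 through CDKN1A and the DREAM complex, a repressor of the cell cycle. Of its 12 tested genes 0 passed in either comparison with DMSO, where 2.84% (ARID1A) and 0% (GSK126) of all genes passed. Differences were negative for 11 of 12 for ARID1A against DMSO (median −0.13) and for 10 of 12 for GSK126 against DMSO (median −0.23). Within batches, PLK1 alone was negative in every batch for ARID1A against DMSO. CDK1, for example, differed by 0.04, −0.29 and −0.43 in batches 1, 2 and 3. For GSK126 against DMSO PLK1, CDK1 and further genes of the list were negative in every batch. Over all genes tested the medians were −0.0027 and −0.0029, with 6424 and 6442 of 12698 differences negative. An unadjusted p below 0.05 was found in limma for 0 of the 12 for ARID1A against DMSO (19.2% of all genes) and for 2 for GSK126 against DMSO (9.33%). These were PLK1, which was lower, and E2F1, which was higher. E2F1, a transcription factor that drives entry into S phase and is named here after its values were seen, averaged 8.68 in GSK126 cells and 8.18 in DMSO cells. Its GSK126 arrays lay above the DMSO arrays by 0.51 on average (SE 0.21, limma adjusted p = 0.522). PLK1, a mitotic kinase, read 9.36, 9.68 and 9.01 in GSK126 cells, 9.68, 9.51 and 9.22 with induced ARID1A, and 10.09, 10.07 and 9.59 in DMSO cells. Both treated groups were below DMSO in each batch and overlapped with it across batches. Its difference was −0.45 (SE 0.20, limma adjusted p = 0.262) for ARID1A against DMSO and −0.57 (SE 0.20, 0.458) for GSK126 against DMSO. CDK1, the kinase that drives mitosis, differed by −0.23 and −0.21 (limma adjusted p = 0.457 and 0.708).

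Across the whole series, each array had 21317 to 22517 probes above background and a median raw intensity of 316.645 to 348.539. For ARID1A, probe ILMN_1734496 was above background on 3 of 3 induced arrays and on no GSK126 or DMSO array, a rise of at least 3.74-fold over DMSO against the dimmest signal above background (limma adjusted p = 0.000319 over all probes). The brighter ARID1A probe, ILMN_1797341, differed by −0.13 (limma adjusted p = 0.507 over all probes). The EZH2 transcript differed by −0.28 for GSK126 against DMSO (limma adjusted p = 0.607). All 4 clear cell carcinoma markers with a probe were above background on the 9 arrays, as were 4 of 5 epithelial markers, all except KRT18. Of the leukocyte and fibroblast markers none was above background on all 9 arrays, although CD14 was on 8 and LYZ on 7. The other leukocyte markers with a probe, PTPRC and CD3E, were on none, and the fibroblast markers on at most 2. The number of arrays limits the precision.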

How the data were processed

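RNA of 9 samples of OVISE cells, 3 per group, was measured on an Illumina expression array. The main deposited table gives each probe's raw intensity on a linear scale and, per the file headers, a detection p-value for each array. The submitters' processing notes name GenomeStudio, without a version. A further deposited table holds the authors' quantile-normalised intensity values on a linear scale, which keep the order of each array's raw values (rank correlation 1, column medians 329.794, or 329.797 on 1 array). It served as an alternative. Columns of other samples numbered 0. No genome build of the probes was given in the sources used here.

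From the deposited intensity values, log2 levels were computed in R 4.3.3 with limma 3.58.1. Its neqc function took its negative controls from the detection p-values, used an offset of 16 and quantile normalised the arrays. A probe was kept if its detection p was under 0.05 on 3 or more arrays (48.63% of probes). The platform annotation gave 30113 probes 1 gene symbol, 8 several and 17202 none. For 30074 probes the symbol was taken from RefSeq through the gene identifier, whether or not it differed. Each of 12698 genes was represented by its brightest kept probe, and 5947 kept probes without 1 symbol were tested as probes only. The model held 3 group means (6 residual degrees of freedom), and two-sided tests of the 3 comparisons were adjusted by Benjamini-Hochberg over all genes, or over all 23014 kept probes where so stated. Every adjusted p comes from limma. Intervals are 95% intervals of the fit.

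Replicate numbers pair the samples, since the labels give each number the same batch in every group. Over the genes tested, deviations from the group mean had correlations of 0.102 to 0.326 in the 9 same-batch pairs of arrays, and of −0.227 to 0.042 in the other 18 pairs. Values with batch as a block, fitted with 4 residual degrees of freedom, are given where they change a call and for some further results. Genes named beyond the 9 were, per list, up to 2 passing genes in each direction or else the 2 with the smallest p for ARID1A against DMSO, and CDKN1A, MDM4, ARID1A and EZH2 always. The p53 gene, also to be named always, was not analysed here. The members, lists and tests were chosen with earlier results of these data known. The model without the block was tested for ARID1A against DMSO on simulated data that held no batch effect. The model with the block was not tested in this way. Alternatives were the background correction, the authors' table, the filter on dim probes, the samples in the fit, the mean of all probes, array weights, the block and each array left out. Promoter sequences come from RefSeq, build GRCh38.p14. Figures were drawn with matplotlib 3.10.9.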

Additional observations from a re-analysis of the deposited data

How the results depend on the processing

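The replicate numbers pair the arrays through the batch, and with the replicate block 1 of the 8 members passed for ARID1A against DMSO, PHLDA3, against 0 without it. The block moved the count of the wider network to 6 for ARID1A against DMSO and to 5 for GSK126 against ARID1A, from 4 each, and left it at 0 for GSK126 against DMSO. Over all 12698 genes the count went from 361 to 774 for ARID1A against DMSO and from 317 to 530 for GSK126 against ARID1A. Over the other alternatives run without the block 0 of 8 members passed in each of the 3 comparisons. Without 1 array, 1 to 4 network genes passed for ARID1A against DMSO and 1 to 4 for GSK126 against ARID1A. Over all genes tested, 92 to 404 and 108 to 255 passed in these fits, in the same order. Over the remaining alternatives without the block, 3 to 6 network genes passed for ARID1A against DMSO and 2 to 6 for GSK126 against ARID1A. The highest network counts, 6 in both, came with the authors' value table and with no background correction, and the lowest, 3 and 2, with only the 2 groups compared in the fit. The ranges over all genes tested were 232 to 643 and 168 to 512, in the same order. Further combinations were chosen after seeing the data. With the block and 1 array left out, 0 members passed, and the network counts were 1 to 7 for ARID1A against DMSO and 3 to 5 for GSK126 against ARID1A. Of all 12698 genes, 104 to 643 and 156 to 320 passed in those fits, in the same order. With the block and the authors' value table, or with the block and no background correction, more genes passed over the whole array. For ARID1A against DMSO 1451 and 1439 of 12698 genes passed, and 1763 and 1686 of 23014 probes. Of the members 2 passed there (PHLDA3 and TP53INP1), and of the member probes 2 (of PHLDA3 and ZMAT3). Network counts in both settings were 9 for ARID1A against DMSO, 1 for GSK126 against DMSO (PLK1) and 7 for GSK126 against ARID1A. All genes passing numbered 65 and 70 for GSK126 against DMSO, and 1085 and 1057 for GSK126 against ARID1A. With the block and a detection p below 0.01 on all 9 arrays, 1 member, 2 member probes, 9 network genes for ARID1A against DMSO and 7 for GSK126 against ARID1A passed. Of 10057 genes tested there, 1142 passed for ARID1A against DMSO and 842 for GSK126 against ARID1A. Of 15909 probes, 1334 passed for ARID1A against DMSO. The cause of these moves was not tested, though the last setting tests fewer genes. Among the 144 member values per comparison from the alternatives other than these combinations, 4 changed sign for ARID1A against DMSO, 3 for GSK126 against DMSO and 7 for GSK126 against ARID1A, none of them past the threshold. The ARID1A gene, −0.13 for ARID1A against DMSO on its brightest probe, was at 1.43 (limma adjusted p = 0.00014) as the mean of its probes, which read differently. FAS and the dimmer TP53I3 probe had the detection p-values closest to the limit among the member probes used.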
